A study of Mus musculus with 9 samples.

Results

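The genes described here encode 10 enzymes and enzyme subunits of the defence against oxidative stress, followed in mature oocytes of the mouse, ovulated eggs halted in metaphase II. They are Hmox1, Nqo1, Gclc, Gclm, Txnrd1, Srxn1, Prdx1, Gpx4, Sod1 and Sod2, and were taken as the probe sets that the platform annotation assigns to exactly 1 of these symbols: 12 of the 35557 probe sets on the array, for 10 of 19938 genes. Gpx4 and Prdx1 have 2 probe sets each and the others have 1, and no probe set shared with another gene names any of them. The oocytes came from C57BL/6 mice in 3 groups of 3 arrays: wild-type, Dgcr8 knockout and Dicer knockout. All females received 7.5 IU of PMSG, a gonadotropin that makes follicles grow, and 7.5 IU of hCG, which triggers ovulation, and the oocytes were freed of cumulus cells with 0.3 mg/ml hyaluronidase. The oviducts were taken 14 to 16 h after hCG per the treatment protocol, and the source labels give 16 h. How the knockouts were made, the age of the females, and the number of oocytes and females per array were not found in the sources used.

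Cells meet reactive oxygen species with several enzyme systems. Superoxide dismutases turn superoxide into hydrogen peroxide, peroxiredoxins and glutathione peroxidases remove peroxides, and the thioredoxin and glutathione systems recharge them with electrons from NADPH. In many cell types the transcription factor NRF2 (Nfe2l2), held in check by KEAP1, switches on a shared set of these genes, Hmox1, Nqo1, Gclc, Gclm, Txnrd1, Srxn1 and Prdx1 among them, through a short promoter sequence called the antioxidant response element. Oocytes at metaphase II are largely silent in transcription, so their RNA is mostly what was made and kept during growth. The study's title asks about microRNA function: Dgcr8 is needed for making canonical microRNAs, and Dicer for both microRNAs and endogenous small interfering RNAs.

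The antioxidant response element was searched as TGACNNNGC on both strands in the 250 bases before each RefSeq transcription start (build GRCm38.p6), and 10.2% of 32851 promoters of that length held a match. Promoters were matched for 8 of the 10 genes, all but Hmox1 and Gclc, with 13 starts in all. The 10.2% counts promoters and not genes, and some of these genes have several starts. A match was found for 4 of the 8 genes, Gclm, Txnrd1, Prdx1 and Sod1, at 1 start each. The promoters of 3 of these are shown, since Gclm was the gene of this set that fell without Dicer while Txnrd1 and Prdx1, also known NRF2 targets, were not called. They lie at chr3:122245307-122245556 for Gclm, chr10:82858956-82859205 for 1 of 3 starts of Txnrd1 and chr4:116685349-116685598 for Prdx1, all on the plus strand and written 5′ to 3′ with the match in capitals.
Gclm: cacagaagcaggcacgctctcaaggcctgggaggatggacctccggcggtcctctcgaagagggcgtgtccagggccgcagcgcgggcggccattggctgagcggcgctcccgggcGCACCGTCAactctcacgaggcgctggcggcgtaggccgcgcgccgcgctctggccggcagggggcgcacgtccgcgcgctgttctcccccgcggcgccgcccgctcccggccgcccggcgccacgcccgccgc
Txnrd1: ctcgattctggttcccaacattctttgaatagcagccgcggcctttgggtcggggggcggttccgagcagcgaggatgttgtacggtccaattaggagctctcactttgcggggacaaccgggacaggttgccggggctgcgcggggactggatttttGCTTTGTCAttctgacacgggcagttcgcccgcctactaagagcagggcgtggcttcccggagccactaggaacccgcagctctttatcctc
Prdx1: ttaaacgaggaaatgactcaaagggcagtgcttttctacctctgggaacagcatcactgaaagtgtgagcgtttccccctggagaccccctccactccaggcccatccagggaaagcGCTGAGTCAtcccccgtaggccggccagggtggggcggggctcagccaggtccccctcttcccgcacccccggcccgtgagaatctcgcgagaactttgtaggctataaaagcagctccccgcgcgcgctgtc
In all 3 the match is on the minus strand, so the letters appear as the reverse complement. It begins 134 bases before the start in Gclm, 92 in Txnrd1 and 133 in Prdx1. In Prdx1 the match overlaps one of TGANTCA, the AP-1 motif, which 6.75% of promoters held. Srxn1 held 2 matches of TGANTCA and none of TGACNNNGC in this window. A match describes the letters and does not show that a factor binds there.

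Without Dicer, 1 of the 10 genes rose clearly and 1 fell slightly, while the others did not pass the test. Hmox1, the inducible haem oxygenase that splits haem into biliverdin, carbon monoxide and iron, was 2.39-fold higher than in wild-type oocytes. Gclm, the modifier subunit of the enzyme that starts glutathione synthesis, was 1.20-fold lower. Without Dgcr8, none of the 10 genes was called, also none at an unadjusted limma p under 0.05 and none with eBayes run without its trend and robust settings. To be called, a gene needed a limma p under 0.05 after Benjamini-Hochberg adjustment over the 17324 genes tested. Of all these genes, 11.3% were called without Dicer (4.87% higher, 6.47% lower) and 0.0231% without Dgcr8, and an unadjusted p under 0.05 was found for 23.7% and 2.64%. The counts among the 10 genes, 2 and 0 called and 3 and 0 at an unadjusted p under 0.05, lie near these shares and are not read as a result about the set.

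**Figure D1:**
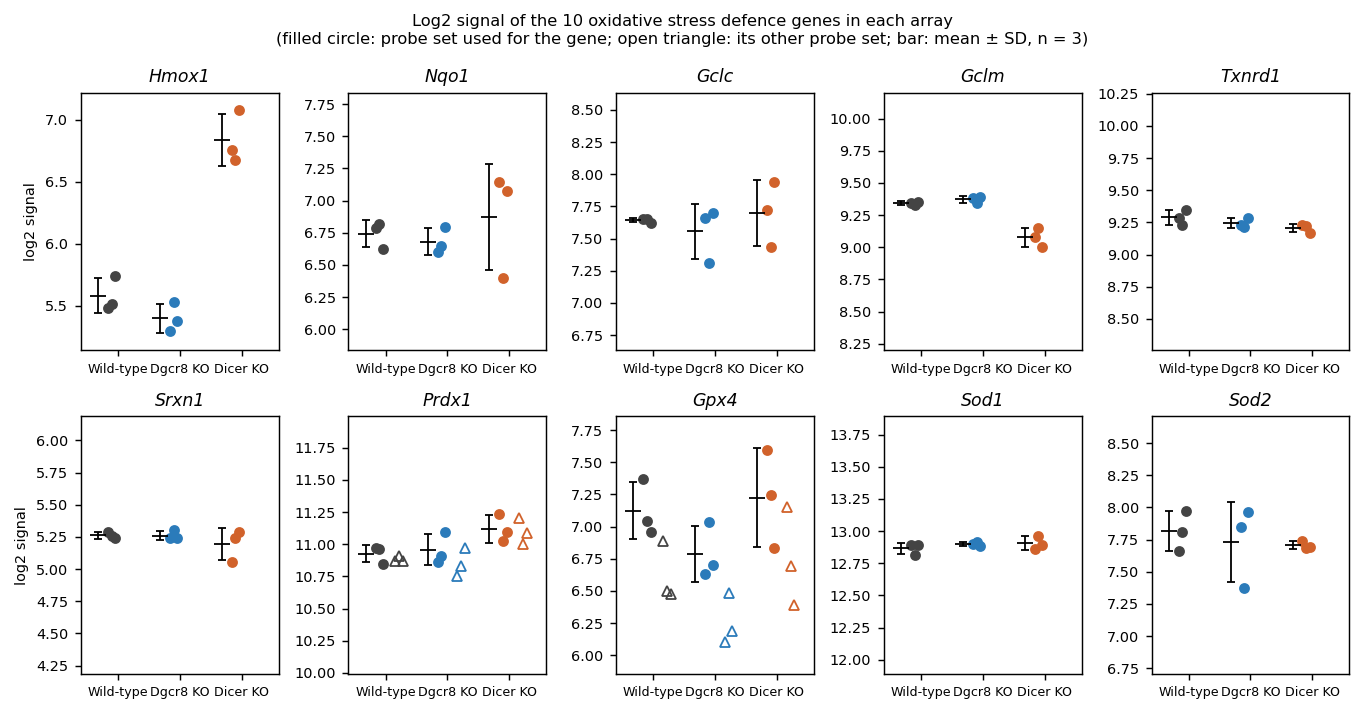
Log2 signal (y axis) of the 10 genes in each array, by genotype (x axis; KO, knockout); circles are arrays, bars give the mean ± SD (n = 3), and open triangles the other probe set of Prdx1 and Gpx4. Each panel has its own y axis. Hmox1 lies between 6.68 and 7.08 in Dicer knockout arrays and between 5.30 and 5.74 in the other 6.

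Hmox1 (Entrez gene 15368, chromosome 8: 75093618 to 75100593, GRCm38.p6) had log2 signals of 5.48, 5.52 and 5.74 in the wild-type arrays, 5.30, 5.53 and 5.38 in the Dgcr8 knockout and 6.75, 6.68 and 7.08 in the Dicer knockout. All 3 Dicer knockout arrays were above the other 6, and the wild-type and Dgcr8 knockout arrays overlapped. The means were 5.58 ± 0.14, 5.40 ± 0.12 and 6.84 ± 0.21 (SD, n = 3). The log2 change without Dicer was 1.25 ± 0.12 (SE), limma adjusted p 0.000157, and without Dgcr8 it was -0.18 ± 0.12 (SE), adjusted p 1. The direct comparison of the knockouts gave 1.43 ± 0.12 (SE), adjusted p 5.95e-05. Hmox1 was called in both comparisons under each of the 19 alternatives run, with adjusted p of at most 0.00229 against wild-type and 0.000672 against the Dgcr8 knockout. The deposited values carry no detection call, so whether the lower signals lie above background is not known.

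Hmox1 is also abundant in macrophages. Of 12 immune and blood markers listed, 8 of 9 on the array passed the floor on low signal, and 1 was called higher without Dicer and none lower. This was Cd68, a lysosomal glycoprotein of macrophages, at 6.15, 6.88 and 6.30 in wild-type, 6.50, 6.78 and 6.88 in Dgcr8 knockout and 7.14, 7.45 and 7.61 in Dicer knockout arrays (log2 signal; adjusted p 0.0110). Lyz2, the lysozyme of myeloid cells, stood at 6.13 in Dicer knockout replicate 3 and between 3.68 and 4.16 in the other 8 arrays. The mean log2 signal of the 9 markers was 4.79 to 4.89 in wild-type, 4.80 to 4.89 in Dgcr8 knockout and 4.85 to 5.30 in Dicer knockout arrays. Csf1r and Ptprc, which define macrophages and leukocytes, ran from 4.16 to 4.55 and from 4.76 to 4.98 over the 9 arrays, with the genotypes overlapping. Both lay below the array medians, 5.48 to 5.58, and whether they lie above background is not known. Their level signals may therefore not bound a change in these cells. Without Dicer knockout replicate 3 the change of Hmox1 was 1.13, adjusted p 0.000461. In bulk samples, a change in the RNA of the oocyte and a change in the share of other cells cannot be told apart.

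Nqo1, a quinone reductase, did not differ detectably between the genotypes. Its log2 signals were 6.79, 6.81 and 6.62 in wild-type, 6.60, 6.65 and 6.80 in Dgcr8 knockout and 7.14, 6.40 and 7.07 in Dicer knockout arrays. Dicer knockout replicate 2 was the lowest of the 9 arrays and the other two Dicer knockout arrays were the highest. The log2 change without Dicer was 0.13, with a 95% interval of -0.27 to 0.52 (adjusted p 0.757), and without Dgcr8 it was -0.06, with an interval of -0.45 to 0.33. Between the knockouts the change was 0.19 (adjusted p 0.586). The last one depended on 1 array: without Dicer knockout replicate 2, Nqo1 was 0.43 higher in the Dicer knockout than in the Dgcr8 knockout and was called (adjusted p 0.0309).

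Of the subunits of glutamate-cysteine ligase, the rate-limiting enzyme of glutathione synthesis, Gclm was called and Gclc was not, and the difference between them was not tested. Gclm (Entrez gene 14630, chromosome 3: 122245487 to 122267215) had log2 signals of 9.35, 9.33 and 9.35 in wild-type, 9.38, 9.34 and 9.39 in Dgcr8 knockout and 9.08, 9.15 and 9.00 in Dicer knockout arrays. All 3 Dicer knockout arrays lay below the other 6. Gclm fell by 0.27 ± 0.06 (log2, SE; adjusted p 0.0203) against wild-type, from 9.34 ± 0.01 to 9.08 ± 0.07 (SD, n = 3). Against the Dgcr8 knockout, at 9.37 ± 0.03 (SD, n = 3), it fell by 0.29 ± 0.06 (log2, SE; adjusted p 0.0111).

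With each array left out in turn, Gclm was called against wild-type in 5 of the 9 fits. With a wild-type array left out, the adjusted p was 0.0701, 0.0634 and 0.0747 for replicates 1, 2 and 3, and the call ended. It also ended, just past the threshold, when Dicer knockout replicate 1 was left out, though the log2 change stayed between -0.30 and -0.23 with each array left out. A shift of the arrays to a common median also ended it (adjusted p 0.0567). Against the Dgcr8 knockout, Gclm was called under all 19 alternatives (adjusted p 0.00495 to 0.0453). Gclc, the catalytic subunit, had a log2 change of 0.06 without Dicer (95% interval -0.26 to 0.37) and of -0.08 without Dgcr8 (-0.40 to 0.23). Its signals were 7.65, 7.65 and 7.62 in wild-type, 7.66, 7.31 and 7.70 in Dgcr8 knockout and 7.72, 7.44 and 7.94 in Dicer knockout arrays, with the highest and the second lowest value both in Dicer knockout.

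**Figure D2:**
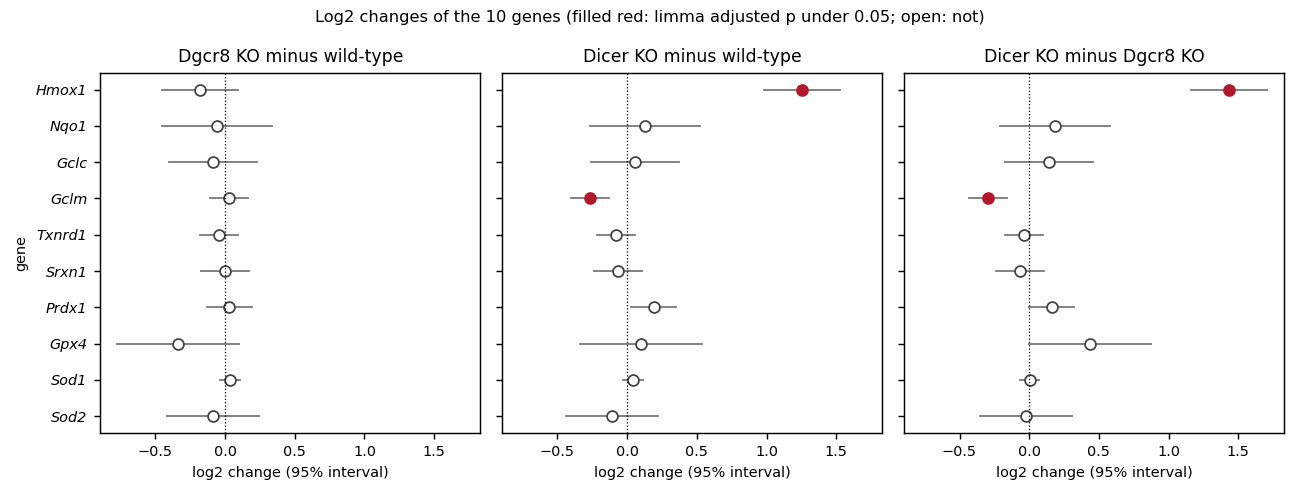
Log2 change of each gene (x axis, with its 95% interval as a line) for the 10 genes (y axis) in the 3 comparisons; KO, knockout. Red points passed the limma test; Hmox1 and Gclm did so in both comparisons that involve the Dicer knockout, and no gene did in the Dgcr8 knockout against wild-type.

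Txnrd1, the cytosolic thioredoxin reductase, a selenoprotein that recharges thioredoxin, was nearly level: 9.29 ± 0.06 in wild-type, 9.25 ± 0.04 in Dgcr8 knockout and 9.21 ± 0.03 in Dicer knockout oocytes (log2 signal, SD, n = 3). The 95% interval of its change was -0.22 to 0.06 without Dicer and -0.18 to 0.09 without Dgcr8, so a change of 0.5 (log2) in either direction lies outside both. Srxn1, sulfiredoxin, which repairs over-oxidised peroxiredoxins, had log2 signals between 5.06 and 5.31 over the 9 arrays and overlapped in all genotypes. Its log2 change was -0.07 without Dicer (interval -0.24 to 0.11) and -0.0011 without Dgcr8. All Srxn1 signals lay below the array medians, 5.48 to 5.58, and whether they lie above background is not known. The interval may therefore not bound a change in Srxn1 RNA.

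Prdx1, a cytosolic peroxiredoxin, is the member closest to the threshold among those not called. Its probe set with the higher signal gave 10.97, 10.97 and 10.85 in wild-type, 10.87, 10.91 and 11.10 in Dgcr8 knockout and 11.24, 11.02 and 11.09 in Dicer knockout arrays. All Dicer knockout arrays lay above the wild-type arrays, while the Dgcr8 knockout overlapped with both. The log2 change without Dicer was 0.19 ± 0.07 (SE), adjusted p 0.141. The other probe set, with each probe set tested by itself, changed by 0.22 ± 0.07 (SE; adjusted p 0.0635) against wild-type and by 0.25 ± 0.07 (SE; adjusted p 0.0342) against the Dgcr8 knockout, where the first gave 0.16 (adjusted p 0.199). The second therefore passed in 1 comparison in which the first did not. The first stands for the gene only because its signal is higher. Where each probe set lies in the genome, and which transcripts or near-identical copies it reads, was not examined. Which of them reads Prdx1 itself is therefore not known, and the counts for the 10 genes use the first.

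With Prdx1 included, groups did not overlap for 3 of the 10 genes between Dicer knockout and wild-type, against 26.2% of all genes tested. Between the knockouts they did not overlap for 2 of 10, against 26.1% of all genes, and 2 of 10 were called, against 13.4%. Between Dgcr8 knockout and wild-type no member had groups apart, against 6.54% of all genes. With 10 genes, counts of 2 and 3 lie near these shares. The median log2 change of the 10 genes was 0.05 without Dicer and -0.05 without Dgcr8, beside -0.03 and -0.0029 over all genes tested. Both knockouts are compared with the same wild-type arrays.

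Gpx4, the selenoenzyme that reduces lipid peroxides, had the widest spread within groups, with a pooled SD of 0.28 against a median of 0.12 over all genes. Its log2 signals were 7.37, 7.04 and 6.96 in wild-type, 6.63, 7.04 and 6.70 in Dgcr8 knockout and 7.60, 7.24 and 6.83 in Dicer knockout arrays. The genotypes overlapped throughout. The other probe set followed it array by array, at 6.89, 6.50 and 6.48 in wild-type, 6.10, 6.48 and 6.19 in Dgcr8 knockout and 7.15, 6.69 and 6.39 in Dicer knockout. The log2 change was 0.10 without Dicer (95% interval -0.34 to 0.54) and -0.34 without Dgcr8 (-0.77 to 0.10). Gpx4 was the only one of the 10 whose interval in the Dgcr8 knockout reached beyond 0.5 (log2), so for this gene the arrays bound a change least well. Between the knockouts it was 0.43 higher in the Dicer knockout (interval -0.0020 to 0.87, adjusted p 0.193). The other probe set, with each probe set tested by itself, was 0.48 higher (interval 0.047 to 0.92, adjusted p 0.146). Which transcripts each Gpx4 probe set reads was not examined.

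Of the superoxide dismutases, Sod1, the copper and zinc enzyme of the cytosol, ranged from 12.82 to 12.97 over all 9 arrays (log2 signal). Its change was 0.04 ± 0.03 (SE) without Dicer and also 0.04 ± 0.03 without Dgcr8, with intervals of -0.03 to 0.11 in both. All 3 genotypes overlapped. The highest log2 signal of any probe set was 13.31, so Sod1 lies near the top of the range. Whether differences are compressed there was not tested, and the intervals may not bound a change in Sod1 RNA. Sod2, the manganese enzyme of mitochondria, had log2 signals of 7.66, 7.81 and 7.97 in wild-type, 7.85, 7.38 and 7.96 in Dgcr8 knockout and 7.74, 7.68 and 7.70 in Dicer knockout arrays. The groups overlapped, and the change was -0.11 without Dicer (interval -0.44 to 0.22) and -0.09 without Dgcr8 (-0.41 to 0.24).

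The other genes of the redox systems were followed as 10 lists with 125 genes, of which 116 were tested. Without Dicer 10 were called higher and 3 lower, 11.2% of them beside 11.3% of all genes. By direction, 4.87% of all genes were called higher and 6.47% lower. The median log2 change of the list genes was -0.000083. The split depended on the settings: quantile normalization gave 10 higher and 8 lower, and after a shift to a common array median the 9 genes called were all higher. With eBayes run without trend and robust, or with the 6 arrays compared alone, the 10 genes called were all higher. Without Dgcr8 only Mt1 was called, a metallothionein that binds zinc and copper. It rose by 3.42 (log2, adjusted p 2.94e-08) without Dgcr8 and by 3.55 (adjusted p 2.04e-08) without Dicer, and did not differ detectably between the knockouts (adjusted p 0.378). Mt1 was the 1 of 4 metallothioneins called. The log2 changes of Mt2, Mt3 and Mt4 were 0.04, 0.0034 and 0.01 without Dgcr8, and 0.30, 0.08 and -0.19 without Dicer. Which sequences the Mt1 probe set reads was not examined.

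In haem and iron handling 2 of 10 genes were called higher without Dicer and none lower. Ftl1, the ferritin light chain that stores iron, had log2 signals of 8.34, 8.20 and 8.61 in wild-type, 8.53, 8.32 and 8.25 in Dgcr8 knockout and 9.58, 9.31 and 9.83 in Dicer knockout arrays. It rose by 1.19 ± 0.15 (SE; adjusted p 0.000676), with all Dicer knockout arrays above the other 6. Ferritin has many near-identical gene copies, so the source of this signal is uncertain. Tfrc, the transferrin receptor that takes up iron, rose by 1.03 ± 0.20 (SE; adjusted p 0.00927), from 6.87 to 7.90. The log2 change was 0.29 in Fth1 (adjusted p 0.449), the ferritin heavy chain, and 0.16 in Hmox2 (0.573), the constitutive haem oxygenase.

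Among 10 peroxidases and catalase tested, Gpx1, a cytosolic glutathione peroxidase, was the 1 called higher. It stood at 7.44, 7.76 and 7.13 in wild-type, 7.63, 6.44 and 7.46 in Dgcr8 knockout and 9.10, 8.94 and 9.10 in Dicer knockout arrays (log2 signal). All Dicer knockout arrays were above the other 6, and the change was 1.60 ± 0.27 (SE; adjusted p 0.00444). Gpx6 was called lower (-0.59, adjusted p 0.0427), but this call was lost with any array left out except wild-type replicate 2 and Dicer knockout replicate 1 (adjusted p 0.0595 to 0.156). Of 20 glutathione transferases, Gstp1 was called higher, by 1.04 ± 0.17 (SE; adjusted p 0.00328), and none lower. Gstp1 has a near-identical neighbour, Gstp2, which its probes may also read.

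In glutathione synthesis and recycling, Slc3a2, the heavy chain of several amino acid transporters including the cystine carrier, was the 1 of 14 genes called. It rose by 0.46 ± 0.07 (SE; adjusted p 0.00160), and its cystine-carrying partner Slc7a11 had a change of 0.05 (adjusted p 0.609). Of 15 genes listed under repair of oxidised protein and DNA, 3 were called higher and none lower. The list also holds sestrins and Pon2, which are not themselves repair enzymes. Sesn2, a sestrin, rose by 0.94 ± 0.16 (SE; adjusted p 0.00388) and Neil3, a glycosylase that removes oxidised bases, by 0.29 ± 0.05 (SE; adjusted p 0.00512). Msrb3, a methionine sulfoxide reductase, rose by 0.32 ± 0.09 (SE; adjusted p 0.0413), a call lost with any array left out except Dgcr8 knockout replicates 1 and 2 (adjusted p 0.0622 to 0.124). In NADPH supply and quinone reduction, Idh1, an NADP-dependent dehydrogenase, was the 1 of 12 called, lower by 0.42 (log2 change -0.42, adjusted p 0.0498). Its call was lost with any array left out except wild-type replicate 3 and Dicer knockout replicate 2 (adjusted p 0.0675 to 0.175). None of 10 genes listed under the thioredoxin system, with Selenof, Selenop, Selenot and Selenow among them, was called by limma. Nor was any of 7 listed under superoxide handling, with Cyba, Cybb, Ncoa7, Oxr1 and Tldc2 among them.

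**Figure D3:**
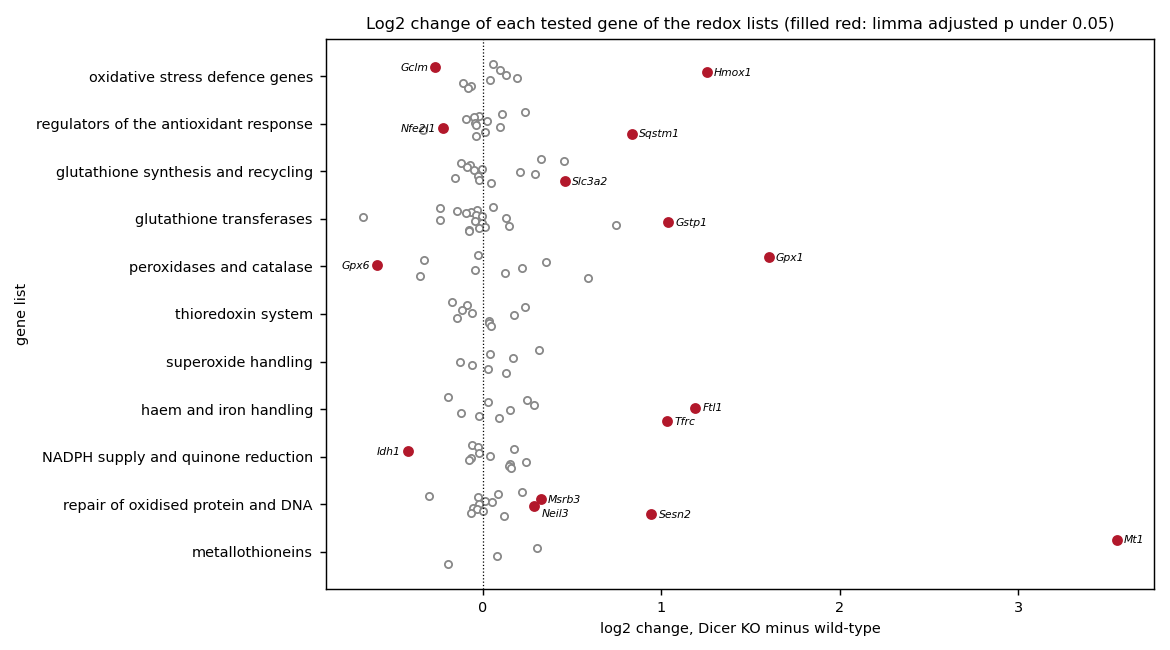
Log2 change in the Dicer knockout against wild-type (x axis) of each tested gene of the 11 redox lists (y axis; KO, knockout), with 1 point per gene. Called genes are red and named; most points lie near 0, and Mt1 (3.55), Gpx1 (1.60), Hmox1 (1.25), Ftl1 (1.19), Gstp1 (1.04) and Tfrc (1.03) are the red points beyond 1.

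Among 14 regulators of the antioxidant response, 1 was called higher and 1 lower without Dicer. Sqstm1, the autophagy receptor p62, which binds KEAP1, rose by 0.84 ± 0.13 (SE; adjusted p 0.00224), from 7.57, 7.69 and 7.40 in wild-type to 8.63, 8.37 and 8.17 in Dicer knockout arrays. Nfe2l1, a relative of Nfe2l2, fell by 0.22 ± 0.05 (log2, SE; adjusted p 0.0278), but this call was lost without any single wild-type array (adjusted p 0.0628 to 0.107) and when Dicer knockout replicate 1 (0.0603) or 3 (0.0521) was left out. The calls of Nfe2l1, Gpx6, Idh1 and Msrb3 also ended with eBayes run without trend and robust (adjusted p 0.0533 to 0.0802). Added after their values were seen, Nfe2l2 itself had a log2 change of -0.34 (adjusted p 0.140), Keap1 of 0.02 (0.926) and Bach1, the haem-sensing repressor of Hmox1, of 0.24 (0.206) in the same comparison.

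The genes whose profile lay nearest to a called member were sought among 16257 others, as the root mean square distance between log2 signals centred on each gene's mean over the 9 arrays. Nearest to Hmox1 were Slc12a8 (0.11), Mrap (0.15) and Phax (0.15), with log2 changes without Dicer of 1.36, 1.29 and 1.28. The median distance of all genes from Hmox1 was 0.67. Nearest to Gclm were Sart3 (0.028), Pdzd2 (0.028) and Tiam1 (0.032), with changes of -0.23, -0.27 and -0.27, against a median distance of 0.18. The arrays share their genotypes, so likeness here means the same step in the Dicer knockout.

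The targeted genes stood as labelled: Dgcr8 went from 8.96 ± 0.10 to 5.71 ± 0.26 in its own knockout and Dicer1 from 11.67 ± 0.01 to 10.72 ± 0.13 (log2 signal, SD, n = 3), though whether their probes lie in the deleted parts is not known here. The 15 oocyte markers had a mean log2 signal of 11.63 to 11.82 in all arrays. Without Dicer 1 was called higher (Zp2, 0.40) and 1 lower (Kit, -0.36). Of 17 cumulus and granulosa markers tested, 1 was called higher (Gata4), with a list mean of 5.33 to 5.44 in all arrays, and of 11 oviduct markers 1 was called lower (Myh11), with a list mean of 5.82 to 6.08. Beside these counts and those of the immune markers, 4.87% of all genes tested were called higher without Dicer and 6.47% lower. What part these cell types have in the changes above was not tested.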

How the data were processed

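RNA of 9 samples, 3 per genotype, was measured on 1 array each. The deposited values are log2 signals per probe set, which the authors made with GCRMA (background correction, normalization between arrays, summary of probes), per the submitters' processing notes; no version or settings were found in the sources used here. Array medians lay between 5.48 and 5.58, and nothing was renormalized. The labels call the samples biological replicates without naming their animals, so p-values measure the spread between these samples. A gene was represented by its probe set with the highest mean. Genes with a signal of at least 4 in at least 3 of 9 arrays, whatever the group, were tested (17324 of 19938), and all 10 members passed. limma 3.58.1 in R 4.3.3 (lmFit, eBayes with trend and robust, statmod 1.5.0; two-sided) was fitted to all 9 arrays without covariates and tested on simulated data. The number of arrays limits the precision. Alternatives changed the floor, scaling, probe set rule, eBayes settings, arrays, weights and a replicate block. Members, lists and tests were chosen with earlier results of these data known; named are all members, up to 4 called genes per list, Dgcr8 and Dicer1, and the 3 nearest profiles. Sequences and gene spans are from RefSeq (GRCm38.p6).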

Additional observations from a re-analysis of the deposited data

How the results depend on the processing

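With a shift to a common array median or with the replicate block, 1 member (Hmox1) was called without Dicer in place of 2, and the Gclm adjusted p was 0.0567 and 0.0501. With each array left out in turn, 1 to 2 members were called. The replicate numbers showed no pairing of the arrays. Deviations from the group means correlated at -0.24 to 0.11 for same-numbered arrays and at -0.16 to 0.25 for the others. With so few arrays per group this check is weak and cannot exclude a pairing. Between the knockouts 2 to 3 members were called throughout. List genes called between the knockouts numbered 15 (10 higher, 5 lower). They numbered 9 after the median shift (7 higher, 2 lower) and 17 after quantile normalization (9 higher, 8 lower). With an array left out, 9 to 14 were called. Without Dicer the list genes called numbered 9 to 18. Without Dgcr8, 0 members and 1 list gene were called in every fit. Over all genes without Dicer, 1584 were called after the median shift and 2467 after quantile normalization, with 46.0% and 33.3% of the calls higher in place of 42.9%. Leaving out an array gave 1238 to 1966 calls in place of 1964 over all genes without Dicer, 1515 to 2253 in place of 2321 between the knockouts and 2 to 4 in place of 4 without Dgcr8, where the 6 arrays compared alone gave 2. Small changes turned sign: without Dgcr8, Srxn1 after quantile normalization (0.011) or median shift (0.011) and Prdx1 with array weights (-0.014); between the knockouts, Sod1 with the median shift (-0.0074) or array weights (-0.00058). Leaving out arrays turned the sign without Dgcr8 of Srxn1 (-0.023 to 0.013), Prdx1 (-0.040 to 0.076), Gclc (-0.16 to 0.037) and Sod2 (-0.20 to 0.089), without Dicer of Nqo1 (-0.0080 to 0.37), Gclc (-0.064 to 0.19), Srxn1 (-0.11 to 0.0015) and Gpx4 (-0.088 to 0.30), and between the knockouts of Srxn1 (-0.11 to 0.0027), Sod1 (-0.028 to 0.024) and Sod2 (-0.20 to 0.095). The causes were not tested.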
